A study of Mus musculus with 4 samples.

Results

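E proteins and their Id inhibitors were described here through the 22 probe sets that the platform annotation assigns to exactly 1 of the 7 genes Tcf3, Tcf4, Tcf12, Id1, Id2, Id3 and Id4, out of 34945 probe sets with 1 gene. There were 14 probe sets for the 3 E protein genes and 8 for the 4 Id genes, and 0 probe sets named a member together with another gene. Total RNA came from stably transfected LMTK- cells, thymidine kinase-deficient mouse fibroblasts derived from L cells, with 1 Mouse Genome 430 2.0 array per line. Lines MTf 4 and MTf 6 were clones that carried the expression vector pCI-neo, which drives its insert from a cytomegalovirus promoter, with the cDNA of mouse melanotransferrin, a membrane-anchored relative of the iron carrier transferrin. Lines vector 1 and vector 2 carried pCI-neo without an insert, so all 4 lines share the vector, and whether the vector lines were single clones is not stated in the labels. The study asks which transcripts differ with melanotransferrin overexpression.

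E proteins are basic helix-loop-helix transcription factors that bind DNA as dimers, at the E box motif CANNTG, alone or with tissue-restricted partners such as the muscle factor MyoD. Tcf3 encodes the splice forms E12 and E47, Tcf4 encodes E2-2 and Tcf12 encodes HEB. Id proteins have the helix-loop-helix but no basic region, so they pair with E proteins and hold them off DNA. In fibroblasts Id genes are known as growth-induced genes and as targets of bone morphogenetic protein (BMP) signalling through Smad factors.

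The windows upstream of Id2, Id3 and Id4 are shown because E proteins act through E boxes and the Id genes are both their inhibitors and, as background, among their targets. Each line below gives the 250 bases before the RefSeq start site, in the build GRCm38.p6, 5′ to 3′ on the gene's strand, with matches to CANNTG in capitals.
Id2 (chr12:25096093-25096342, minus strand): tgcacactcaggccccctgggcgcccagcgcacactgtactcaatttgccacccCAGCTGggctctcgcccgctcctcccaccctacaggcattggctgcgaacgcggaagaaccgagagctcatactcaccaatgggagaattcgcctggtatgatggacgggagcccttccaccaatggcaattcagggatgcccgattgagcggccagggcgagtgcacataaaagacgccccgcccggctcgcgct
Id3 (chr4:136143572-136143821, plus strand): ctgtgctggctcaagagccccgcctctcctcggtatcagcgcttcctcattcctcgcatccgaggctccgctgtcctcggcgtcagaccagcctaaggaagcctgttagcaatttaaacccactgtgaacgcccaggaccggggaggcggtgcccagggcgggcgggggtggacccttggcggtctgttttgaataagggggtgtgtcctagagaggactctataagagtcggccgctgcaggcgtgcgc
Id4 (chr13:48260866-48261115, plus strand): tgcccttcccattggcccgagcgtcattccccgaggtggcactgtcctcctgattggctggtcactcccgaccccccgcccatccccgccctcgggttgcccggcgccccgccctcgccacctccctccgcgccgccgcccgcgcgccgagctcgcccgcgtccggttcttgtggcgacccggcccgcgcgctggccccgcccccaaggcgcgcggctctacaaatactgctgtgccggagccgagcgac

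The Id2 window held 1 E box, CAGCTG, which begins 196 bases before the start site. The Id3 and Id4 windows held 0. The motif reads the same on both strands. Of all 32851 windows of this length 66.2% held CANNTG and 13.0% held CAGCTG, so a match in this window is common. Windows were found for 5 of the 7 members, all but Id1 and Tcf4, 7 windows in all, and among those not printed, Tcf3 had 1 match, CACTTG at 54 bases before its start. Tcf12 had 1 match in each of 2 of its 3 windows, CAGCTG at 240 bases and CAAGTG at 149 bases before the start. The CCAAT box, searched on both strands and sharing no bases with the E box match, occurred 3 times in the Id2 window, 2 times in that of Id4 and 0 times in that of Id3. It was present in 33.8% of all windows.

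All values below are array signals, scaled by the submitters to a common level, and differences are on the scale log2(signal + 32), which understates changes of dim probe sets. Median signals lay between 209 and 211 in the MTf lines and were 214 in both vector lines. Meltf, the gene of melanotransferrin, gave 1518 and 1885 in MTf 4 and MTf 6, against 265 and 274 in vector 1 and vector 2, so the labelled groups did not overlap. Its log2 difference was 2.52 (95% interval 1.97 to 3.06), and with an adjusted p = 0.0911 in limma it too missed the threshold of 0.05. Of 10 fibroblast markers 8 passed the filter on dim probe sets, and their summed signal was between 218357 and 272046 in the MTf lines and between 202684 and 226958 in the vector lines. Of 33 markers of muscle, lymphocyte, macrophage, neural, melanocyte, epithelial and endothelial cells 14 passed it. One of these 14, the epithelial marker Epcam, was under an unadjusted 0.05 in limma, against 1.81% of all tested probe sets. By 1447899_x_at it gave 326 in MTf 4 and 405 in MTf 6, against 131 in vector 1 and 40.1 in vector 2. Both vector lines were below the filter of 206, so Epcam, at a mean signal of 225, was tested only because the MTf lines were higher. Its log2 difference was 1.87, with an unadjusted p = 0.00772 and an adjusted p = 1.00 in limma. By its suffix x, this probe set may also match other transcripts. Krt8, the other epithelial marker above the filter, gave 419 in MTf 4 and 520 in MTf 6, against 572 in vector 1 and 505 in vector 2. Cdh1 and Krt18 were below the filter, and their groups overlapped. These were arrays of bulk RNA, in which fewer cells that express a gene and less of its RNA per cell cannot be told apart.

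No E protein or Id probe set passed the test between the MTf clones and the vector lines. Of the 22 probe sets 15 passed the filter, a mean signal of at least 206, with 12 of E proteins and 3 of Id genes, and 0 of the 15 passed limma's test at an adjusted p of 0.05, where 0.00444% of all 22519 tested probe sets did. At an unadjusted 0.05 limma again gave 0 of 15, against 1.81% of all tested probe sets. In 0 of the 15 were the 2 groups apart without overlap, against 25.8% of all tested probe sets. The adjusted p was 1.00 for each of the 15 in limma. Log2 differences reached from -0.34 for Id1 to 0.23 for a Tcf3 probe set, 9 of them positive and 6 negative. Their median was 0.03 and the median of their absolute values 0.07, where all tested probe sets had -0.01 and 0.15. With 1 line left out in turn, the sign of the difference turned for 13 of the 15, so it rests on single lines. The 95% intervals reached 0.40 to either side of the estimate for the most tightly measured Tcf12 probe set and 1.10 for Id1. These intervals are not adjusted for the number of probe sets, and the adjusted threshold was missed even by Meltf, whose difference was larger than either bound.

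**Figure D1:**
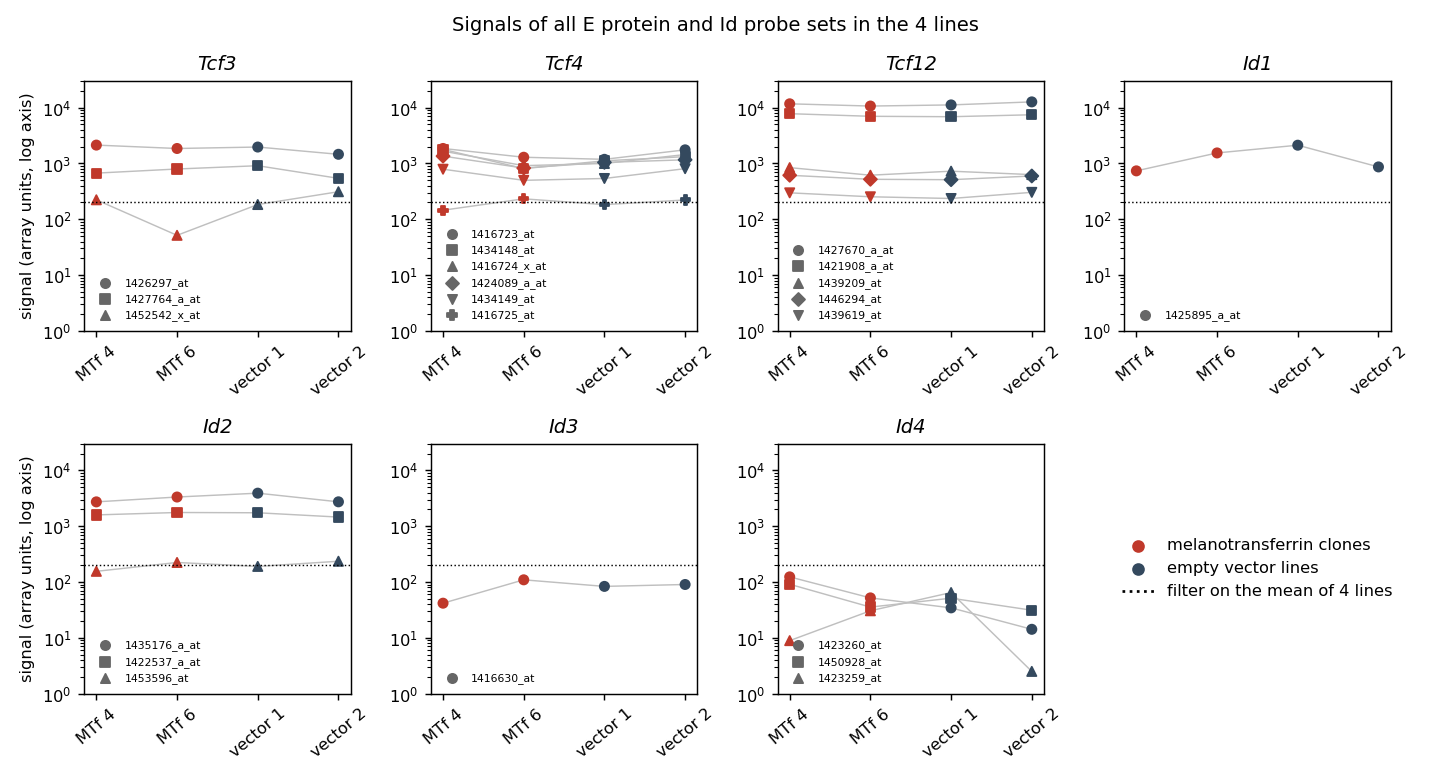
Signals of the 22 probe sets of the 7 genes in MTf 4, MTf 6, vector 1 and vector 2, on a log axis, with 1 marker shape per probe set and the filter on the mean signal of 206 as a dotted line. Tcf12 lay nearly flat, Tcf4 was high in MTf 4 and vector 2 by 5 of its 6 probe sets, Id1 was high in vector 1 and MTf 6, and Id3 and Id4 lay below the filter.

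Among the E proteins, Tcf12, which encodes HEB, varied least between the lines. Its brightest probe set, 1427670_a_at, gave 11722 in MTf 4 and 10685 in MTf 6, against 11201 in vector 1 and 12691 in vector 2. The MTf lines averaged 11204 ± 733 and the vector lines 11946 ± 1053 (SD, n = 2 each), with a log2 difference of -0.09 (95% interval -0.49 to 0.31). A second probe set, 1421908_a_at, gave 7801 and 7003 in MTf 4 and MTf 6, against 6884 and 7461 in vector 1 and vector 2. Its log2 difference was 0.04 (95% interval -0.37 to 0.46), and its range over the 4 lines of 0.18 was matched or exceeded by 93.9% of all tested probe sets. The other 3 Tcf12 probe sets had log2 differences between 0.03 and 0.09 and ranges of at most 0.43. In MTf 6 all 5 Tcf12 probe sets lay below their values in MTf 4, by 0.13 to 0.43 on the log2 scale.

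Tcf4, which encodes E2-2 and is a follow-up gene of melanotransferrin work, had the widest range of the E proteins among probe sets above the filter. That range, 1.11 on the log2 scale by 1434148_at, lay between lines of the same group and not between the groups. The brightest Tcf4 probe set, 1416723_at, had a range of 0.63, below the 0.72 of the Tcf3 probe set 1427764_a_at. By 1416723_at Tcf4 gave 1858 in MTf 4 and 1293 in MTf 6, against 1187 in vector 1 and 1755 in vector 2. The MTf lines averaged 1576 ± 399 and the vector lines 1471 ± 402 (SD, n = 2 each), so the group means differed by less than the spread within either group. The limma difference was 0.10 on the log2 scale (95% interval -0.55 to 0.75). The probe set with the widest range, 1434148_at, gave 1790 in MTf 4 and 809 in MTf 6, against 1115 in vector 1 and 1326 in vector 2. MTf 4 was highest and MTf 6 lowest there, and both vector lines lay between them, with a group difference of -0.01 (95% interval -0.85 to 0.83).

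The Tcf4 probe sets above the filter ordered the lines of each group the same way. All 5 were lower in MTf 6 than in MTf 4, by 0.51 to 1.11 on the log2 scale, and all 5 were higher in vector 2 than in vector 1, by 0.15 to 0.56. That combination was present in 34% of all tested probe sets, and the 5 share a transcript and the arrays, so they are not separate observations. MTf 4 was the highest line in 4 of the 5, against 30.4% of all tested probe sets. The exception was 1434149_at, with 790 in MTf 4 and 499 in MTf 6, against 539 in vector 1 and 808 in vector 2. The sixth probe set, 1416725_at, just below the filter with a mean signal of 196, ran the other way between the clones, with 145 in MTf 4 and 233 in MTf 6, against 183 in vector 1 and 222 in vector 2. Each line was hybridised once, so differences between single lines have no replicate check. The fibroblast marker sum was also highest in MTf 4 and next in vector 2. Above the filter, Col1a1, Vim, Pdgfra and Fn1 had this order. Col1a2 and S100a4 were next highest in MTf 6, Col3a1 in vector 1, and Pdgfrb was highest in vector 1 and lowest in MTf 4. The sum of 5 lymphocyte markers was likewise highest in MTf 4 and next in vector 2. It was between 1540 and 2675 in the MTf lines and between 1197 and 1881 in the vector lines. Most of that sum was Cd79a, a B cell receptor component and the only marker of these 5 above the filter. Cd79a gave 2375 in MTf 4 and 1364 in MTf 6, against 918 in vector 1 and 1734 in vector 2. Below the filter, Cd79b, Cd3g and Ptprc were lower in vector 2 than in vector 1, and Cd3e was higher. The sums of the macrophage, muscle, neural, melanocyte, epithelial and endothelial markers had other orders. The part of cell type markers in the Tcf4 signals was not tested.

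Tcf3, which encodes E12 and E47, was lowest in vector 2 by both tested probe sets. The brighter, 1426297_at, gave 2135 in MTf 4 and 1856 in MTf 6, against 1970 in vector 1 and 1460 in vector 2. Its log2 difference between the groups was 0.23 (95% interval -0.31 to 0.76), the highest of the 15. The other, 1427764_a_at, gave 672 and 796 in MTf 4 and MTf 6, against 912 and 542 in vector 1 and vector 2, with a log2 difference of 0.05. Vector 2 was the lowest line in 21.1% of all tested probe sets. Tcf3 lies on chromosome 10, and in vector 2 its 2 probe sets deviated by -0.33 and -0.39 on the log2 scale from their means over the 4 lines, against a median deviation of -0.25 for 512 other chromosome 10 genes. The part of the chromosome in the Tcf3 signals was not tested. The third probe set, 1452542_x_at, below the filter with a mean signal of 193, gave 224 in MTf 4 and 51.6 in MTf 6, against 184 in vector 1 and 312 in vector 2, and so was highest where the others were lowest. In the naming of this array the suffix x marks probe sets with probes that may match other transcripts.

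**Figure D2:**
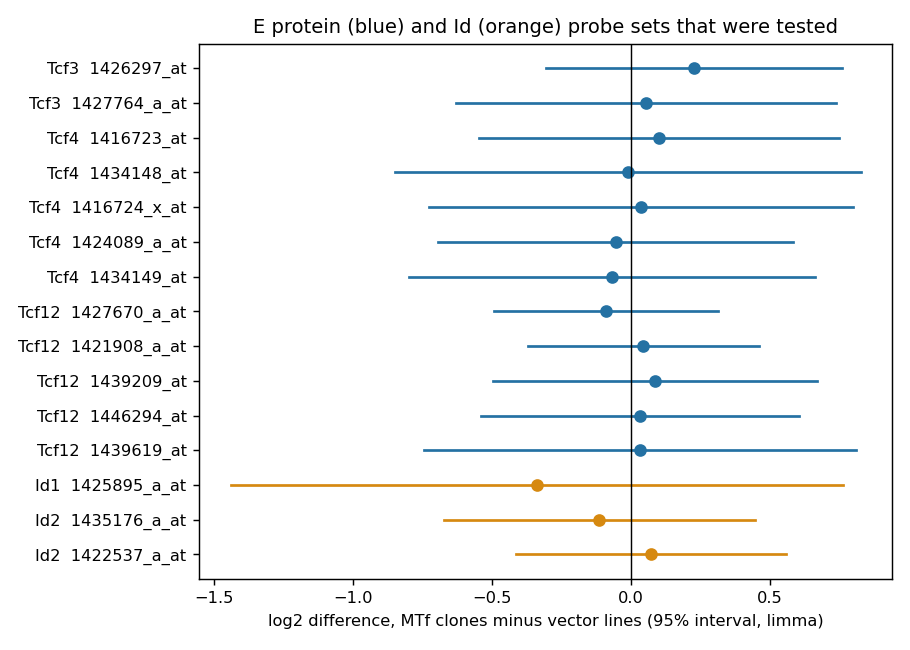
Log2 differences of the 15 tested probe sets, MTf clones minus vector lines, as points with 95% intervals from limma, E proteins in blue and Id genes in orange. All 15 intervals include 0, and that of Id1 is the widest, from -1.44 to 0.76.

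Among the inhibitors, Id1 had the widest range of all tested members, again within the groups. Its only probe set gave 737 in MTf 4 and 1545 in MTf 6, against 2126 in vector 1 and 868 in vector 2. Vector 1 was highest, MTf 6 next, and MTf 4 and vector 2 were low, so the groups overlapped. The MTf lines averaged 1141 ± 571 and the vector lines 1497 ± 890 (SD, n = 2 each), with a log2 difference of -0.34 (SE 0.47, 95% interval -1.44 to 0.76). That difference was -0.97 without vector 2 and 0.29 without vector 1. Its range of 1.49 on the log2 scale was reached by 3.77% of all tested probe sets. Id1 was 2.05-fold higher in MTf 6 than in MTf 4, and its difference between vector 2 and vector 1 was -1.26 on the log2 scale. Of all tested probe sets 5.26% differed at least 2-fold between the clones, 3.76% between the vector lines and 0.817% in both pairs. Among the members, Id1 was at least 2-fold apart in both pairs and the Tcf4 probe set 1434148_at in the clones, and the other 13 tested probe sets in neither.

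Id2 followed the order of Id1 in part, with far smaller differences. Its brightest probe set, 1435176_a_at, gave 2726 in MTf 4 and 3329 in MTf 6, against 3903 in vector 1 and 2732 in vector 2. The MTf lines averaged 3028 ± 427 and the vector lines 3317 ± 828 (SD, n = 2 each), and the log2 difference was -0.12 (95% interval -0.67 to 0.44). Vector 1 and MTf 6 were again the higher lines. By the second probe set, 1422537_a_at, Id2 gave 1592 and 1758 in MTf 4 and MTf 6, against 1739 and 1456 in vector 1 and vector 2. That difference was 0.07 (95% interval -0.42 to 0.56), of the opposite sign. The third Id2 probe set, 1453596_at, lay just below the filter with a mean signal of 201, with 155 in MTf 4 and 224 in MTf 6, against 190 in vector 1 and 235 in vector 2.

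Id3 and Id4 were dim by every probe set, and their 4 probe sets were not tested. Id3 gave 41.7 in MTf 4 and 109 in MTf 6, against 83.4 in vector 1 and 90.2 in vector 2, and the groups overlapped. Id3 lies on chromosome 4, and in MTf 6 it deviated by 0.36 on the log2 scale from its mean over the 4 lines, against a median deviation of 0.22 for 643 other chromosome 4 genes. In MTf 4 it deviated by -0.58, against -0.05 for these genes. In vector 1 and vector 2 its deviations of 0.07 and 0.15 had the opposite sign to their -0.08 and -0.06. The part of the chromosome was not tested. Id4 gave 124 in MTf 4 and 51.9 in MTf 6, against 34.4 in vector 1 and 14.2 in vector 2 by 1423260_at. This was the only member probe set of the 22 in which the groups did not overlap, where 25.8% of all tested probe sets had no overlap. At a mean signal of 56 it was itself not tested. The other Id4 probe sets differed from it and from each other. The probe set 1450928_at gave 91.1 in MTf 4 and 35.5 in MTf 6, against 51.3 in vector 1 and 31.2 in vector 2. The probe set 1423259_at gave 8.9 in MTf 4 and 30.5 in MTf 6, against 64.7 in vector 1 and 2.5 in vector 2. Detection calls were not used, and none of these 4 probe sets carries a test.

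Between lines of the same group, Id1 and Tcf4 thus lay at opposite corners. Relative to MTf 4, MTf 6 had more Id1 and less Tcf4, and relative to vector 1, vector 2 had less Id1 and more Tcf4. Opposite signs in the 2 pairs were common on these arrays. MTf 6 above MTf 4 with vector 2 below vector 1, as for Id1 and for both tested Id2 probe sets, was present in 27.9% of all tested probe sets. The reverse, as for Tcf4, was present in 34%.

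**Figure D3:**
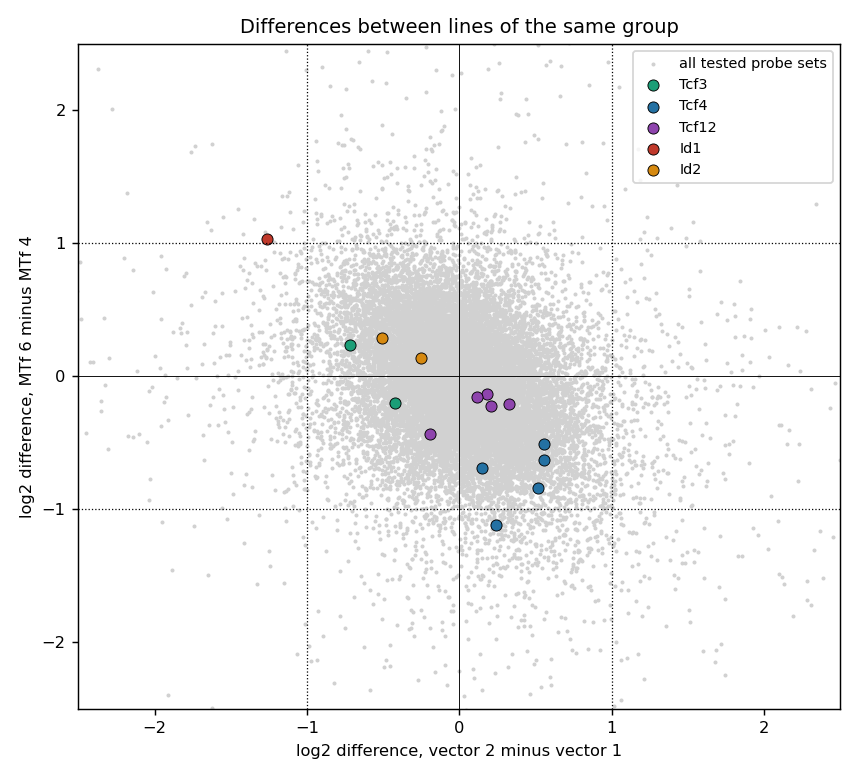
Log2 difference of MTf 6 minus MTf 4 (vertical) against vector 2 minus vector 1 (horizontal) for each tested probe set, with members coloured by gene, all others in grey and dotted lines at a 2-fold difference. Id1 lies at -1.26 and 1.03 in the upper left, the 5 Tcf4 probe sets in the lower right, and 94 probe sets beyond 2.5 on either axis are outside the plot.

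The genes most like Id1 across the lines were Uhrf1, Mcm3 and Cct4. Likeness was the root mean square distance between log2 deviations from each probe set's own mean over the 4 lines, among 19387 tested probe sets of other genes. The nearest was Uhrf1, which maintains DNA methylation at replication, at a distance of 0.07, with signals of 2088 in MTf 4 and 3802 in MTf 6, against 5927 in vector 1 and 2321 in vector 2. The next were Mcm3, a subunit of the replicative helicase, at a distance of 0.08, and Cct4, a subunit of the cytosolic chaperonin, at 0.09 by the probe set 1456572_x_at. The other tested probe sets of Uhrf1 and Mcm3, 1 and 4, had the signs of Id1 in both pairs of lines, but only 2 of the other 5 of Cct4 did, with differences between the clones from -0.29 to 0.35. A list of 18 DNA replication genes, added with these results known, stood at a median of -0.40 in MTf 4 and 0.30 in MTf 6, against 0.47 in vector 1 and -0.32 in vector 2. Its order over the 4 lines was that of Id1, but the list holds Uhrf1 and Mcm3, so this likeness is in part built in. Whether the Id1 signal goes with the share of dividing cells was not tested. None of the 18 passed limma's test between the groups, and 0 were under an unadjusted 0.05. By the brightest probe set of each gene, 1 of them was higher and 17 were lower in the MTf lines. The median log2 difference was -0.15, where all tested probe sets had -0.01. Id1 was itself lower in the MTf lines, and the list was added with its pattern known, so this lean is also in part built in. Probe sets of a gene could disagree. Pold1 had -0.34 by its brightest and 0.25 by 1456055_x_at. Rrm2 had -0.30 by its brightest, 0.13 by 1416120_at and -0.23 by 1448226_at. Ccne2, cyclin E2, had a log2 difference of -0.48 and was highest in MTf 6, where Id1 was highest in vector 1. Its signals were 564 in MTf 4 and 1597 in MTf 6, against 1548 in vector 1 and 1156 in vector 2. The genes most like the Tcf4 probe set 1434148_at were Bcl2, an inhibitor of cell death, and Clip1, a microtubule plus-end protein, each at a distance of 0.02, and the pseudogene Zfp133-ps at 0.03. Bcl2 gave 1046 in MTf 4 and 484 in MTf 6, against 670 in vector 1 and 789 in vector 2. Of the other 3 tested probe sets of Bcl2, 2 had the signs of Tcf4 in both pairs of lines, and all 3 were lower in MTf 6 than in MTf 4. Of the other 4 of Clip1 only 1 had those signs, with differences between the clones from -0.10 to 0.36. With 4 lines and 19387 candidates such near matches are easily found, and they carry no test.

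**Figure D4:**
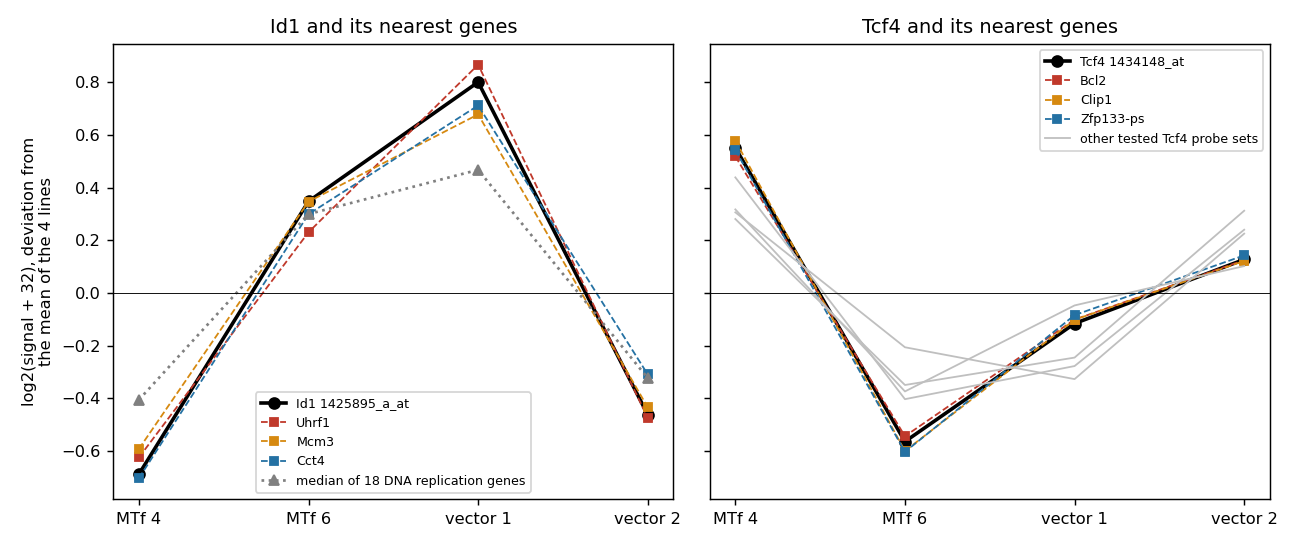
Deviations of log2(signal + 32) from the mean of the 4 lines for Id1 (left) and the Tcf4 probe set 1434148_at (right), in black, with the 3 nearest genes of each. The grey triangles are the medians of 18 DNA replication genes, from -0.40 in MTf 4 to 0.47 in vector 1, and the grey lines at right are the other tested Tcf4 probe sets.

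Genes around the E protein and Id system, in 6 lists of 74 genes, showed no call either. The platform annotation gave 73 of them a probe set, 35 passed the filter by their brightest probe set, and 0 of the 35 passed limma's test over all probe sets. In the MTf lines 18 were higher and 17 lower, and the median log2 difference was 0.01, where all tested probe sets had -0.01. Groups without overlap were found in 14 of the 35, 6 with MTf higher and 8 with MTf lower, against 12.1% and 13.6% of all tested probe sets. These include Heyl, Hand1 and Cbfa2t3, whose mean signal in the lower group was below the filter, so they were tested through the group where they were high. By the brightest probe set 1 gene, Cbfa2t3, was under an unadjusted 0.05 in limma, against 1.81% of all tested probe sets. Over all 69 tested probe sets of the 35 genes 2 were, the other being 1 of Zeb2, and 0 were called.

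Cbfa2t3 encodes a corepressor of the ETO family that binds E proteins. It gave 142 in MTf 4 and 249 in MTf 6, against 425 in vector 1 and 439 in vector 2. The mean of the MTf lines, 196, was below the filter of 206, so it passed the filter through the vector lines. Both clones were below both vector lines, with a log2 difference of -1.07 (95% interval -1.90 to -0.24), an unadjusted p = 0.0186 and an adjusted p = 1.00 in limma. Its other 3 probe sets were below the filter and overlapped between the groups. Of 10 genes for cofactors and turnover 9 were tested, 6 higher and 3 lower. Lmo4, a LIM-only adaptor, gave 2570 and 2830 in MTf 4 and MTf 6, against 2048 and 2133 in vector 1 and vector 2. Lmo2, the LIM-only adaptor of E protein complexes in blood cells, gave 615 and 198 in MTf 4 and MTf 6, against 287 and 69.7 in vector 1 and vector 2, and the groups overlapped.

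Of 26 partner factors of the E proteins 25 had a probe set and 4 were tested, 1 higher and 3 lower in the MTf lines. Twist2, a mesenchymal partner, gave 2555 in MTf 4 and 2817 in MTf 6, against 3740 in vector 1 and 3484 in vector 2. Both clones were lower, by a log2 difference of -0.42 (95% interval -0.87 to 0.02). Hand1 and Atoh1, partner factors of heart and neural development, had log2 differences of -0.53 (95% interval -1.47 to 0.40) and -0.38 (95% interval -1.33 to 0.56). Hand1 gave 181 in MTf 4 and 183 in MTf 6, against 368 in vector 1 and 208 in vector 2. Atoh1 gave 152 and 195 in MTf 4 and MTf 6, against 284 and 194 in vector 1 and vector 2. Against the filter of 206, Atoh1 passed only through vector 1, and Hand1 through the vector lines, mainly vector 1. The other Hand1 probe set, below the filter, went the opposite way, with 81.7 and 91.8 in MTf 4 and MTf 6, against 37.5 and 33.3 in vector 1 and vector 2. The muscle factor Myod1 was below the filter, with 35.8 in MTf 4 and 162 in MTf 6, against 256 in vector 1 and 254 in vector 2. Other partners below the filter included Myog, Myf5, Tal1, Twist1, Tcf21 and Scx.

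Of 7 bHLH repressors 5 were tested, 1 higher and 4 lower. Heyl, a Notch-induced repressor, gave 257 in MTf 4 and 281 in MTf 6, against 132 in vector 1 and 176 in vector 2. The log2 difference was 0.71 (95% interval -0.19 to 1.61). Both vector lines were below the filter of 206, so Heyl, at a mean signal of 211, was tested only because the MTf lines were higher. Bhlhe40 and Bhlhe41, repressors that act in the circadian clock, were lower in both clones, with log2 differences of -0.37 and -0.44. Bhlhe40 gave 2455 and 1828 in MTf 4 and MTf 6, against 2728 and 2786 in vector 1 and vector 2. The E box repressors Zeb2, Snai1 and Snai2 had log2 differences of 0.11, -0.16 and -0.0043 by their brightest probe sets, which overlapped between the groups. Probe sets of Zeb2 disagreed. The probe set 1434298_at gave 1327 in MTf 4 and 1168 in MTf 6, against 1690 in vector 1 and 2808 in vector 2, without overlap. Its log2 difference was -0.79 (95% interval -1.43 to -0.15), with an unadjusted p = 0.0222 and an adjusted p = 1.00 in limma. The other 2 above the filter had -0.23 and 0.10 and overlapped.

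BMP signalling, an inducer of Id genes, gave 9 tested genes of 20, and 6 were higher and 3 lower at a median log2 difference of 0.01. Those tested were the receptors Bmpr1a, Bmpr2, Acvr1 and Eng and the Smad genes Smad1, Smad4, Smad5, Smad6 and Smad7, while the ligands Bmp2, Bmp4, Bmp6 and Bmp7 were below the filter. Bmpr2 gave 2515 in MTf 4 and 1507 in MTf 6, against 2270 in vector 1 and 2499 in vector 2, a log2 difference of -0.29 (95% interval -0.92 to 0.35), and of 0.05 by its other tested probe set. Acvr1, a type I receptor, and Smad7, an inhibitory Smad, had log2 differences of -0.17 and 0.19. The other tested probe sets of Acvr1 gave 0.00066 and 0.15, so its sign differed between probe sets. Over the 9 genes the median deviation was 0.08 in MTf 4 and -0.05 in MTf 6, against 0.01 in vector 1 and -0.01 in vector 2. The part of BMP signalling in the Id1 signal was not tested.

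Of 7 cell cycle genes linked to E proteins and Id factors 5 were tested, 3 higher and 2 lower. Ccnd1, cyclin D1, gave 14641 in MTf 4 and 12733 in MTf 6, against 17756 in vector 1 and 15601 in vector 2, a log2 difference of -0.29 (95% interval -0.69 to 0.12), and of -0.35 and -0.23 by its other probe sets. Cdk4, its kinase partner, which like Tcf3 lies on chromosome 10, was lowest in vector 2 and had a log2 difference of 0.59 (95% interval -0.27 to 1.45). Cdkn1c, a CDK inhibitor, had a log2 difference of 0.24.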

How the data were processed

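Per the submitters' processing notes, the authors made intensity values, 1 per probe set and array, with GCOS 1.3, with settings not given in the sources used here; they were deposited on a linear scale and used as deposited. Of 45101 probe sets 64 were controls and left out. The platform annotation gave 34945 of the other 45037 exactly 1 gene, 932 several and 9160 none here. Of the 34945, 34741 were found by gene ID in a gene table of GRCm38.p6, which gave chromosomes; promoter windows are RefSeq's.

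Signals were converted to log2(signal + 32). Probe sets with a mean signal below the median of all, 206, were left out, and 22519 were tested, MTf minus vector, with limma 3.58.1 in R 4.3.3 (lmFit, eBayes with a trend), Benjamini-Hochberg adjustment over all of them and a threshold of 0.05. The smallest exact permutation p for 2 against 2 arrays is 0.333. The number of arrays limits the precision, and p-values measure the spread between these lines only, which for the vector lines may be technical. The fit was tested on simulated data. Single lines were compared by a 2-fold difference, with no test. The 11 alternatives covered the offset, the filter, the variance prior, the scaling and leaving out each line. For lists, the brightest probe set stood for a gene, and the 3 genes of each list with the smallest p were named, besides all members, Meltf and the 3 genes nearest in pattern to the widest-ranging E protein and Id probe sets. Markers and genes that only illustrate the filter were named after their values were seen. The members and lists were chosen with earlier results of these data known.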

Additional observations from a re-analysis of the deposited data

How the results depend on the processing

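The count of 0 called E protein and Id probe sets held in all 11 alternatives, with adjusted p-values of at least 0.967 in limma. The call of 1 probe set over the whole array moved to 0 without the filter and 0 without the trend in the variance prior, and was between 1 and 22 with a line left out (22 without MTf 4, 6 without MTf 6, 2 without vector 1). A fit without 1 line holds a lone array in a group, which is assumed to vary like the other group. With a line left out, the sign of the log2 difference turned for 13 of the 15 tested members, which had small differences throughout. For Id1 it lay between -0.97 (without vector 2, an unadjusted p = 0.0473) and 0.29, and for Id2 between -0.37 and 0.14 by 1435176_a_at and between -0.054 and 0.20 by 1422537_a_at. For Tcf4 the ranges were -0.18 to 0.38 (1416723_at), -0.57 to 0.55 (1434148_at), -0.38 to 0.46 (1416724_x_at), -0.40 to 0.29 (1424089_a_at) and -0.38 to 0.25 (1434149_at). For Tcf12 they were -0.033 to 0.12 (1421908_a_at), -0.13 to 0.30 (1439209_at), -0.082 to 0.14 (1446294_at) and -0.13 to 0.20 (1439619_at), and for Tcf3 -0.31 to 0.41 (1427764_a_at). The other 2, 1426297_at of Tcf3 (0.01 to 0.44) and 1427670_a_at of Tcf12 (-0.18 to -0.0012), kept their sign. Quantile normalization turned the sign of 1434148_at of Tcf4, to 0.0039. With the mean of all probe sets of a gene in place of the brightest, 3 of 28 values per gene and line moved by more than the spread within groups, Tcf3 in MTf 6 (-0.37) and in vector 2 (0.02) and Id4 in MTf 4 (0.39). No paired analysis was possible because the groups share no replicate number. Signal over background limits Id3 and Id4, and 15.7% to 17.8% of signals per array were under 32.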
